A study of Mus musculus with 2 samples.

Results

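Head-to-head coding promoters are stretches of DNA from which a pair of protein-coding genes start in opposite directions, 1 gene on each strand. They were taken here as pairs of protein-coding genes of the GENCODE M21 annotation of mouse genome build mm10 whose start sites lie 1 to 1000 bp apart, pointing away from each other, with gene bodies that do not overlap. There were 681 such pairs with 1343 genes, which is 6.12% of the 21938 protein-coding genes, and 19 genes belonged to more than 1 pair. The region of a pair ran from 250 bp inside one gene, across both start sites, to 250 bp inside the other. The 20595 protein-coding genes in no pair, the other coding promoters, had 1 region each of the same length as the median pair region.

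The assay was DNase-seq, in which the enzyme DNase I cuts accessible chromatin and the cut ends are sequenced. The tissue came from the hippocampus of B6CASTF1/J males at 14 days of age, and its label, layer of hippocampus, does not name the layer. Such mice are first-generation offspring of a cross between C57BL/6 and CAST/EiJ, so each carries both parental genomes. The series held 1 group of 2 biological replicates with no treatment and no second group. Each label speaks of 3 males and both labels carry the same donor identifier, so the spread between these samples may be partly technical. With 1 group no test between conditions was possible. Values are therefore given for both replicates, and the pairs are set beside other promoters as a description.

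A promoter is the stretch around a start site where transcription factors and RNA polymerase II assemble, and in active or poised genes it is usually free of nucleosomes and open to DNase I. Many mammalian promoters lie in CpG islands, where the dinucleotide CG is kept at a high density, and such promoters are open in most cell types. Head-to-head pairs share 1 promoter stretch between the genes, often join housekeeping genes, and are known to be rich in CpG islands and poor in TATA boxes. A footprint is a short run of bases within open chromatin that is cut less than its surroundings, as happens where a protein sits on the DNA.

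The sequences between the start sites of 8 pairs are shown, most of them chosen for high peak values and not as typical members. The first 5 are among the 8 pairs with the highest peak values, the next 2 belong to genes of the cytosolic and the mitochondrial ribosome, and the last had no peak in either replicate. Each is the plus strand of mm10, written 5′ to 3′, without the start bases themselves, and capitals mark bases under a footprint in both replicates.
Cdc27-Myl4: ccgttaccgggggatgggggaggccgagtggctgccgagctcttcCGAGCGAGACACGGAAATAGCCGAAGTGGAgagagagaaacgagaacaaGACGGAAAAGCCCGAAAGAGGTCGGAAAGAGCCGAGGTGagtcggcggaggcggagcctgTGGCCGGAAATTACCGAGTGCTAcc
Tepsin-Ndufaf8: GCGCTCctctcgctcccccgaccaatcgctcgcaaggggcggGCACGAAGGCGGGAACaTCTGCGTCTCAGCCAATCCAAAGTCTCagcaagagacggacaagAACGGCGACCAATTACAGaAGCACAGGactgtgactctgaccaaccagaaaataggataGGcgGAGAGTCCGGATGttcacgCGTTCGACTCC
Deaf1-Tmem80: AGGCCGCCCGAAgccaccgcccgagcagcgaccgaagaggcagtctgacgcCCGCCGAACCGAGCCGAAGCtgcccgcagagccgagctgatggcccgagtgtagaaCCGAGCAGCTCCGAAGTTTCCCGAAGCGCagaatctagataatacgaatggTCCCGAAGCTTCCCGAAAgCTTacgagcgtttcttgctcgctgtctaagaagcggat
Sharpin-Maf1: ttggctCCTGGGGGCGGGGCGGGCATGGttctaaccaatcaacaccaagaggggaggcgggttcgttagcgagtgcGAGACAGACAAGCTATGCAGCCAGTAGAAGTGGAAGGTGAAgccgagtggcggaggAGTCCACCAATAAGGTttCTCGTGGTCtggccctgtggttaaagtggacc
Nfya-Oard1: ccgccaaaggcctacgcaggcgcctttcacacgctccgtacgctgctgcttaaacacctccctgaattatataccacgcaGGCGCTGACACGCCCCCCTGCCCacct
Med22-Rpl7a: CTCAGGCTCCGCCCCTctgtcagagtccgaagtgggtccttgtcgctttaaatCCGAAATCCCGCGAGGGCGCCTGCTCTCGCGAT
Mrps12-Sars2: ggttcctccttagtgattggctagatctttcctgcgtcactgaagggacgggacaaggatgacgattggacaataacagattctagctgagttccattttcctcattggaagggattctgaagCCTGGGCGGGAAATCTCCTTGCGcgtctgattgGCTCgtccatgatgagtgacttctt
Rad51c-Tex14: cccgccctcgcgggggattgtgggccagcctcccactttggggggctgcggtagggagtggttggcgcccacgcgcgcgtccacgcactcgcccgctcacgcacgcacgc

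In Cdc27-Myl4 (chr11:104550484-104550662) 92 of the 179 bases lay under a footprint in both replicates. In Tepsin-Ndufaf8 (chr11:120098732-120098927) it was 51.5% of 196 bases, in Sharpin-Maf1 (chr15:76351112-76351293) 88 of 182, and in Med22-Rpl7a (chr2:26910678-26910763) 49 of 86. Fewer bases were covered in Nfya-Oard1 (chr17:48409907-48410013), with 23 of 107, and in Mrps12-Sars2 (chr7:28741821-28742001), with 27 of 181. None of the 110 bases of Rad51c-Tex14 (chr11:87404955-87405064) was. Deaf1-Tmem80 (chr7:141327673-141327887) had 82 of 215 bases covered, in 5 runs. In 3 further pairs measured alike and not printed the covered share was 20.7% (Rer1-Morn1), 19.4% (Klc4-Mrpl2) and 7.06% (Brca1-Nbr1), and over the whole regions of all open pairs, flanks included, it was 8.80%.

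The letters TTCG, the core that the transcription factor DEAF1 is known to bind, were searched on both strands of these stretches after the sequences had been seen. The region of the Deaf1-Tmem80 pair, with its 250 bp flanks, held 20 matches. Of the 9 between the start sites, 7 lay wholly under footprints of both replicates. Among the regions of all 21938 coding genes the median was 1 match, and 1 region, 0.00456% of them, held as many. These coding regions include those of the genes of the pairs themselves, which overlap the pair regions, so the ranks are not independent of them. They are 646 bp long each, while pair regions vary in length. Sharpin-Maf1 held 8 matches, a number reached by 99 coding regions, but 1 of them lay between the start sites and 0 under footprints of both replicates there. Cdc27-Myl4 held 6, reached by 600, Nfya-Oard1 and Med22-Rpl7a 5 each, Tepsin-Ndufaf8 4 (reached by 14.4% of coding regions), Mrps12-Sars2 2 (47.6%) and Rad51c-Tex14 0. Covered matches between the start sites were not particular to Deaf1-Tmem80. There, 2 of 2 in Cdc27-Myl4, 2 of 2 in Tepsin-Ndufaf8 and 1 of 2 in Med22-Rpl7a lay under footprints of both replicates. Nfya-Oard1 and Mrps12-Sars2 had 0 matches between the start sites. A match of letters does not show which protein covered them.

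Nearly all head-to-head promoters were open. A peak of the authors' longer list overlapped the region in both replicates in 645 of 681 pairs, or 94.7% (exact Clopper-Pearson 95% interval 92.8 to 96.3%, which covers counting error only and treats regions, which are not replicates, as independent draws). Among all coding promoter regions the share was 56.5%. Taken alone, replicate 1 had a peak in 646 pairs (94.9%) and replicate 2 in 649 (95.3%), against 58.7% and 58.4% of all coding promoter regions. A peak in 1 replicate only was found in 5 pairs (0.734%), against 3.99% of all coding promoter regions, and no peak in 31 pairs (4.55%), against 39.5%. In bulk tissue, fewer nuclei with an open site and weaker opening in each nucleus cannot be told apart. By the same measure 8 of 10 neuronal marker genes and 4 of 6 glial ones were open in both replicates, without Gad1, Rbfox3, Csf1r and Pdgfra, and 0 of 8 markers of liver, muscle, lymphocytes, cerebellum or trunk were.

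The head-to-head regions were rich in CpG. Their median ratio of observed to expected CG dinucleotides, the CpG ratio, was 0.827, and the middle 50% of pairs lay between 0.717 and 0.911. The median of the other coding promoters was 0.545. The median GC content was 62.3% in pairs and 55.3% in the others. Other promoters were therefore weighted so that each CpG ratio bin of 0.1 counted as often as it does among pairs. Of these weighted promoters 88.7% were open in both replicates, 6.05 percentage points fewer than the pairs. The difference was 4.93 points in replicate 1 and 4.94 in replicate 2. Its size moved with the settings, from 4.82 points for pairs at most 500 bp apart to 16.1 points with weighting by GC content, and it was 40.6 points with no weighting.

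The difference within a bin was wider at intermediate CpG ratios than at high ones, where most pairs lie. Of pairs with a ratio from 0.5 to 0.6, 88.9% were open in both replicates, against 72.3% of other promoters in that bin. From 0.6 to 0.7 the shares were 92.3% and 82.4%, and from 0.8 to 0.9 they were 99.5% and 94.8%. From 0.4 to 0.5, 10 of 12 pairs were open, against 51.7% of the others. CpG-poor pairs were not open more often than others in every bin: from 0.2 to 0.3, 1 of 10 pairs was open, against 11.3%, and none of the 5 pairs under 0.2 was. Over all ratios of at least 0.6, 598 of 612 pairs were open (97.7%, interval 96.2 to 98.7%), against 91.7% of the others. Under 0.6, 47 of 69 pairs were (68.1%, interval 55.8 to 78.8%), against 22.5%, here without weighting inside the class. The intervals of the pairs in single bins under 0.5 are wide.

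**Figure D1:**
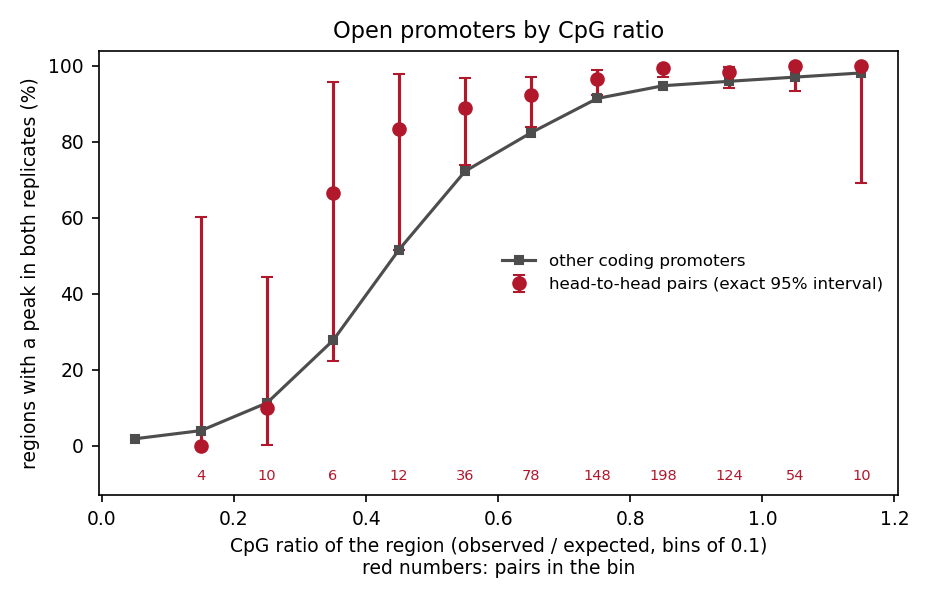
Share of regions with a peak in both replicates (y axis, percent) by CpG ratio of the region in bins of 0.1 (x axis), for head-to-head pairs (red points, exact 95% interval, number of pairs below; the lowest bin with 1 pair is not drawn) and other coding promoters (grey line). Both rise with the ratio, and the pairs lie above the others from 0.3 upwards, for instance 88.9% against 72.3% between 0.5 and 0.6.

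The highest peak of an open pair was strong for its library. The authors' value per peak has no stated scale, so it is used only to describe and rank peaks and to form ratios within a replicate. In replicate 1 the highest peak of an open pair ranged from 0.276 to 11.9 with a median of 3.84, while the median of all listed peaks was 0.594. In replicate 2 it ranged from 0.326 to 14.4 with a median of 4.68, and the list median was 0.734. The median pair stood at the 96.8th percentile of the list in replicate 1 and the 96.0th in replicate 2. In 536 of the 645 open pairs (83.1%) the peak was among the top 10% in both replicates, against 61.3% of open other promoters of like CpG ratio.

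Set beside open other promoters of like CpG ratio, the median value was 3.84 against 2.75 in replicate 1 and 4.66 against 3.49 in replicate 2. The ratio was 1.39 and 1.33, with a mean of 1.36 ± 0.0428 (SD, n = 2). It was 1.29 among genes with 1 annotated start site each, and 1.61 with no weighting. The spread among the pairs followed CpG ratio and start-site distance only loosely. Across the 645 open pairs, Spearman's rho of the mean value was 0.218 with CpG ratio and 0.0933 with the distance between start sites. These pairs share their libraries and differ in base composition. The replicates ordered the pairs alike (rho 0.947), and replicate 2 had the higher value in 612 of 645, with a median ratio of 1.23, close to the 1.24 between the medians of the whole lists.

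**Figure D2:**
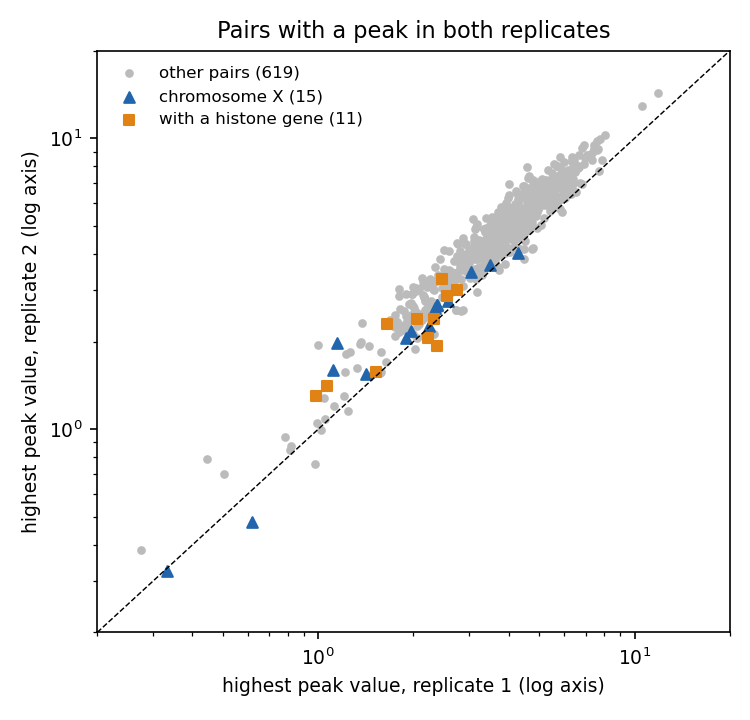
Highest peak value of each of the 645 pairs open in both replicates, replicate 1 on the x axis and replicate 2 on the y axis, both logarithmic and in the authors' unit. Most points lie above the dashed line of equality, and the 11 histone pairs (orange) and the 15 pairs on chromosome X (blue) all have values of at most 4.28 in both replicates.

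The 2 highest pairs stood apart from the rest. Cdc27-Myl4 on chromosome 11, which joins a subunit of the anaphase-promoting complex with a myosin light chain of embryonic and atrial muscle, reached 11.9 in replicate 1 and 14.4 in replicate 2. Tepsin-Ndufaf8, also on chromosome 11, joins an adaptor complex accessory protein with an assembly factor of respiratory complex I and reached 10.5 and 12.9. The next was Fbh1-Ankrd16 on chromosome 2, with a DNA helicase gene, at 8.05 and 10.3. Both leading pairs lay above every other pair in each replicate. Deaf1-Tmem80 on chromosome 7 had values of 7.79 and 9.93. Sharpin-Maf1 on chromosome 15 had 7.59 and 9.78; Sharpin belongs to the linear ubiquitin ligase complex and Maf1 represses RNA polymerase III. Nfya-Oard1 on chromosome 17 had 7.69 and 9.21, where Nfya encodes a subunit of the CCAAT-binding factor NF-Y. Rer1-Morn1 on chromosome 4 had 7.42 and 9.47, and Ddx5-Cep95 on chromosome 11, with an RNA helicase and a centrosomal gene, had 7.59 and 9.12. These last 5 pairs lay close together and were ordered differently by the replicates.

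Of 12 gene pairs often used as textbook examples of shared promoters, 5 met the rule. All 5 were open in both replicates, which is near the 94.7% of all pairs. Brca1-Nbr1 on chromosome 11, with a gene of homologous recombination and an autophagy receptor gene, had 6.33 in replicate 1 and 8.44 in replicate 2. Atm-Npat on chromosome 9, a DNA damage kinase beside an activator of histone genes, had 5.84 and 7.83. Mcm4-Prkdc on chromosome 16 joins a replicative helicase subunit with the catalytic subunit of the DNA-dependent protein kinase and had 5.48 and 5.76. Gart-Son on chromosome 16, purine synthesis beside a splicing cofactor, had 4.31 and 5.26. Col4a4-Col4a3 on chromosome 1 encodes chains of type IV collagen, known from the basement membrane of the kidney glomerulus, and had 0.276 and 0.383. It was the lowest open pair of replicate 1 and the second lowest of replicate 2, with a CpG ratio of 0.457.

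Only a part of the pairs was covered by a single peak. In 341 of the 645 open pairs (52.9%) 1 same peak covered both start sites in both replicates; in replicate 1 alone the share was 60.8% and in replicate 2 alone 59.9%. It fell with distance. At 1 to 100 bp it was 205 of 239 pairs (85.8%, interval 80.7 to 89.9%), at over 100 and up to 250 bp 110 of 219 (50.2%), at over 250 and up to 500 bp 25 of 117 (21.4%) and at over 500 bp 1 of 70 (1.43%). With peaks widened by 50 bp on each side it rose to 64.5% of all open pairs. The median width of the highest peak was 300 bp in both replicates, against 300 and 320 bp in other open promoters. The covered length of the region grew from a median of 280 bp in both replicates in the closest class to 582 bp and 593 bp in the widest. Regions lengthen with that distance by definition, and a peak of 300 bp cannot cover start sites over 300 bp apart. The part of this geometry in these trends was not tested.

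The closest start sites of all were those of Bag4-Lsm1 on chromosome 8, which lie 1 bp apart, with values of 6.69 in replicate 1 and 8.0 in replicate 2. Bag4 encodes a chaperone regulator and Lsm1 a subunit of a ring that binds mRNA for decay. Dhrs1-Nop9 and Slc7a6os-Prmt7, each 3 bp apart, had 2.28 and 2.76, and 3.84 and 5.56. At the other end, Btf3l4-Txndc12 at 987 bp had 2.16 and 2.85, Asphd1-Sez6l2 at 981 bp 1.94 and 2.69, and Zfyve26-Rad51b at 978 bp 2.54 and 3.38. All 6 were open in both replicates, which is near the 94.7% of all pairs. The nearest pair beyond the limit, Ddias-Prcp at 1005 bp, had 4.26 and 5.41.

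The centre of the highest peak lay between the start sites in 361 pairs in replicate 1 and 351 in replicate 2. It lay inside the minus-strand gene in 147 and 156 pairs and inside the plus-strand gene in 137 and 138, so neither strand was favoured by much. Open chromatin reached 200 bp into the gene less often than at open other promoters, but nearer to the start this did not hold for the closest pairs. At 60 bp inside, a peak covered 79.5% of starts in replicate 1 and 81.6% in replicate 2 for pairs 1 to 100 bp apart. In open other promoters it was 73.0% and 74.9%. Only the outermost start site of each gene was used, and the part of start sites further in was not tested. At 200 bp inside the gene a peak covered 24.3% of starts in replicate 1 and 25.1% in replicate 2 for pairs 1 to 100 bp apart, and 21.7% and 23.5% for pairs more than 100 and up to 250 bp apart, against 40.4% and 44.0% of open other promoters. At the start site itself the closest pairs were covered in 92.9% of starts in both replicates, against 80.4% and 80.2% of other promoters. The wider classes were covered less often there, in 79.9% in both replicates for the second class, 71.8% and 74.4% for the third and 65.0% and 63.6% for the widest. At 200 bp upstream, pairs of that second class had 69.2% and 68.3% against 36.9% and 35.1%, a position that for these pairs lies at or beyond the partner's start site in part. These position shares were not weighted by CpG ratio.

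**Figure D3:**
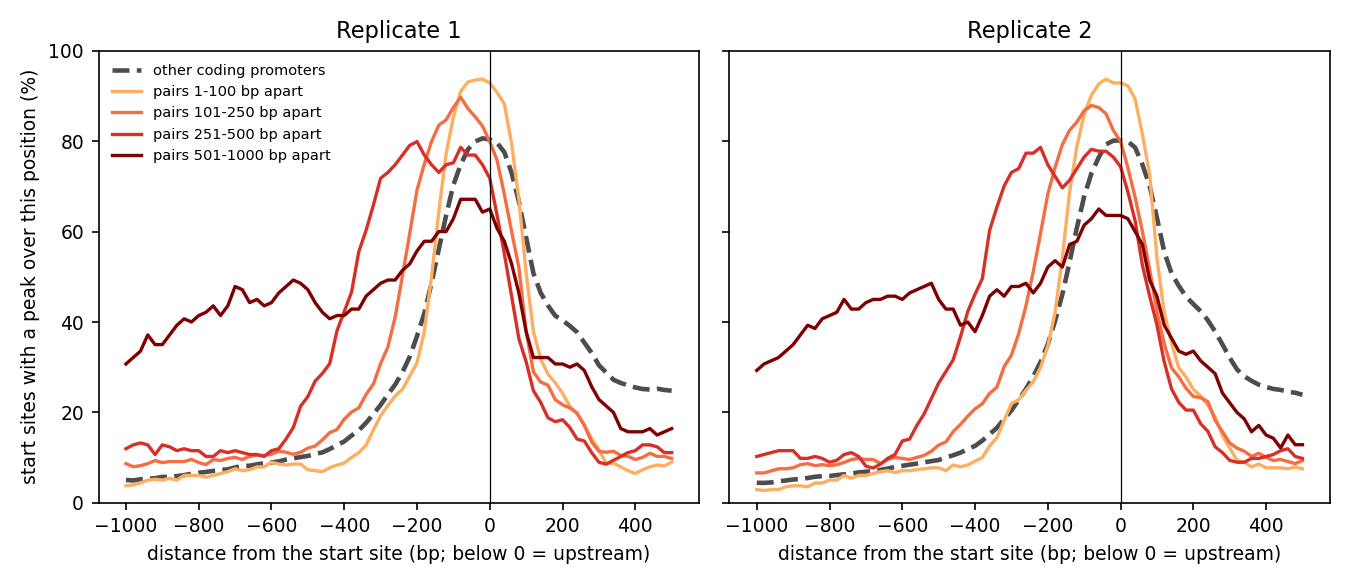
Share of start sites with a peak over each position (y axis, percent) by distance from the start site (x axis, bp, negative is upstream), for open pairs by distance class (coloured lines) and open other coding promoters (dashed), 1 panel per replicate. Coverage upstream widens with the distance between the start sites, and at 200 bp inside the gene the closest pairs stand at 24.3% and 25.1% against 40.4% and 44.0% for other promoters.

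In 38 open pairs each start site had a peak of its own in both replicates, with 0, 3, 14 and 21 such pairs in the distance classes from closest to widest. The same start site had the higher peak in both replicates in 37 of these 38, the exception being Ddx25-Pus3. The higher peak had a median of 1.47 times the value of the lower one in replicate 1 and 1.52 times in replicate 2. The gap was widest at Abca17-Abca3 on chromosome 17, a pair of lipid transporter genes 955 bp apart. Abca17 had 0.375 and 0.546 where Abca3 had 3.81 and 5.58. At Fbxo44-Fbxo2 on chromosome 4, F-box genes 538 bp apart, the peak at Fbxo44 had 4.43 and 5.06 and that at Fbxo2 0.813 and 1.48. These pairs, named after their values were seen, show 1 start site well above its partner in each replicate.

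Strong peaks at both starts were found at other separate pairs. Dcaf6-Mpc2 on chromosome 1, with a gene of the mitochondrial pyruvate carrier, had 6.09 and 6.73 at Dcaf6 and 5.04 and 5.96 at Mpc2, 572 bp away. Qpctl-Snrpd2 on chromosome 7, with a core spliceosomal protein gene, had 5.19 and 5.91 against 4.53 and 4.48, and Mcm4-Prkdc had 5.48 and 5.76 against 4.36 and 5.19. Within each of these the partners differed far less than at Abca17-Abca3.

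Footprints were dense between the start sites. The pair regions held 5173 footprints in replicate 1 and 5189 in replicate 2. A footprint in both replicates was found in 642 of 681 pairs (94.3%), against 54.1% of all coding promoter regions. The median open pair held 8 footprints in each replicate, and the middle 50% held 6 to 10. Open pairs had 11.5 footprints per kb in both replicates, and open other promoters of like CpG ratio had 9.53 and 9.72. The ratio was 1.21 and 1.18, with a mean of 1.19 ± 0.0171 (SD, n = 2). The regions of the others include a further 250 bp upstream that pair regions lack, where footprints are sparse. The part of this layout in the ratio was not tested. With 250 bp either side of each start site in both groups the ratio was 1.15. More peak signal goes with more footprints (rho 0.349 and 0.300 across open pairs), and the part of the higher peak values in this density was not tested.

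By position, the stretch between the start sites had 16.1 footprints per kb in replicate 1 and 15.2 in replicate 2. The first 100 bp inside the genes had 13.3 and 13.5, and the next 150 bp 6.17 and 6.78. Open other promoters had 13.8 and 13.6 per kb over the 145 bp upstream of the start, 12.7 and 13.1 in the first 100 bp inside and 7.43 and 8.28 further in, without weighting. The next 250 bp upstream, which pair regions do not have, had 5.02 and 4.89 in these promoters. A footprint of a pair was covered at least 50% by one of the other replicate in 56.9% of cases in replicate 1 and 55.3% in replicate 2. In open other promoters these shares were 51.1% and 49.7%, and over all footprints 32.7% and 38.4%. Of all bases in open pair regions 8.80% lay under footprints of both replicates. In other open promoters it was 5.98%, without weighting and with their further 250 bp upstream counted in.

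Ddx5-Cep95 held the most shared footprints: 25 in replicate 1 and 27 in replicate 2, of which 15 and 18 were covered by the other. B3galt6-Sdf4 on chromosome 4 had 17 and 18 within a shorter region, its start sites being 223 bp apart where those of Ddx5-Cep95 are 720 bp apart. Fiz1-Gm44973 on chromosome 7 had 21 and 21 and Cep57-Fam76b on chromosome 9, with a centrosomal gene, had 21 and 17. Of these, all except B3galt6-Sdf4 have start sites over 600 bp apart, so their regions are long.

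Motif letters were searched in the pair regions on both strands, for 12 motifs of promoter factors; matches of different motifs can overlap, as in the E2F and GC box letters of the Mrps12-Sars2 sequence. The core motif of NRF1, a regulator of mitochondrial and other housekeeping genes, stood in 24.5% of pairs, against 13.8% of other promoters of like CpG ratio and 7.89% of all coding promoter regions. The ETS motif (CCGGAAG), bound by a large family that includes GABP, stood in 40.5% against 23.9% and 16% of all. The YY1 motif (AAGATGGC) stood in 14.0% against 7.84% and 5.76%. The ZNF143 core motif was rare, in 1.32% of pairs, against 0.625% and 0.479%. Pair regions reach 250 bp into a gene at either end. Regions of the others do so at a single end and hold a further 250 bp upstream. The part of this layout in the motif shares, here and below, was not tested.

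The CCAAT box (CCAATNA), the site of NF-Y, stood in 32.9% of pairs, against 22.2% of others of like CpG ratio and 25.4% of all. The E2F motif (GGCGGGAA), known from cell cycle genes, stood in 12% against 8.46% and 5.31%, and the CRE (TGACGTCA), bound by CREB and ATF factors, in 5.87% against 4.28% and 2.95%. The GC box (GGGCGG) of the Sp family stood in 85.9% against 84.4% and 56.2%. Counted per length, it was less dense in pairs, at 3.80 matches per kb against 4.46. The TATA box (TATAAA) stood in 8.37% of pairs, against 12.9% of others of like CpG ratio and 22.2% of all. The E-box (CACGTG) stood in 17.6% against 16.5% and 12.4%, the CTCF core motif in 1.91% against 2.45% and 1.92%, and the AP-1 motif (TGANTCA) in 7.20% against 7.78% and 12.4%. Such shares also depend on region length, which varies among pairs and not among the others. Per length the E-box was less dense in pairs, at 0.285 matches per kb against 0.301. The motifs other than the GC box and the E-box kept their direction per kb. Counting per kb does not remove the difference in layout between pair regions and the others.

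Motifs differed in where they stood and in how often they were covered. Of the matches in open pairs, 74.5% of CCAAT boxes lay between the start sites and only 12.9% of YY1 matches did, the rest lying inside a gene. For NRF1 this share was 51.4% and for ETS 36.9%. A CRE match lay under footprints of both replicates in 34 of 42 cases (81.0%, interval 65.9 to 91.4%), against 67.2% in open other promoters. For NRF1 it was 137 of 210 (65.2%, interval 58.4 to 71.7%) against 67.7%. For the GC box it was 29.3% (interval 27.2 to 31.4%) against 21.7%, and for ETS 19.9% (interval 16.0 to 24.4%) against 13.8%. YY1 had 16.8% against 13.8%, CCAAT boxes 12.5% against 9.53%, and AP-1 1 of 45 matches. The intervals of the GC box and ETS shares lie above the share of the other promoters, which was not weighted here, and those of NRF1, CRE, YY1 and CCAAT hold it. These intervals treat matches as independent draws, although a region can hold several, and are no test between the groups. The regions of the others also include a further 250 bp upstream, where footprints are sparse. For CTCF it was 3 of 13 matches (23.1%, interval 5.04 to 53.8%) against 44.8%, which the interval holds. In replicate 1 alone 46.2% of these 13 lay under a footprint, and in replicate 2 alone 23.1%. None of the 9 ZNF143 matches was under footprints of both replicates, while 33.3% lay under one of replicate 1 and 11.1% under one of replicate 2. Counted in a single replicate the shares are higher: 29.2% in replicate 1 and 30.9% in replicate 2 for ETS, 29.7% and 24.8% for YY1 and 26% and 23.4% for E2F, which had 16.9% in both.

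**Figure D4:**
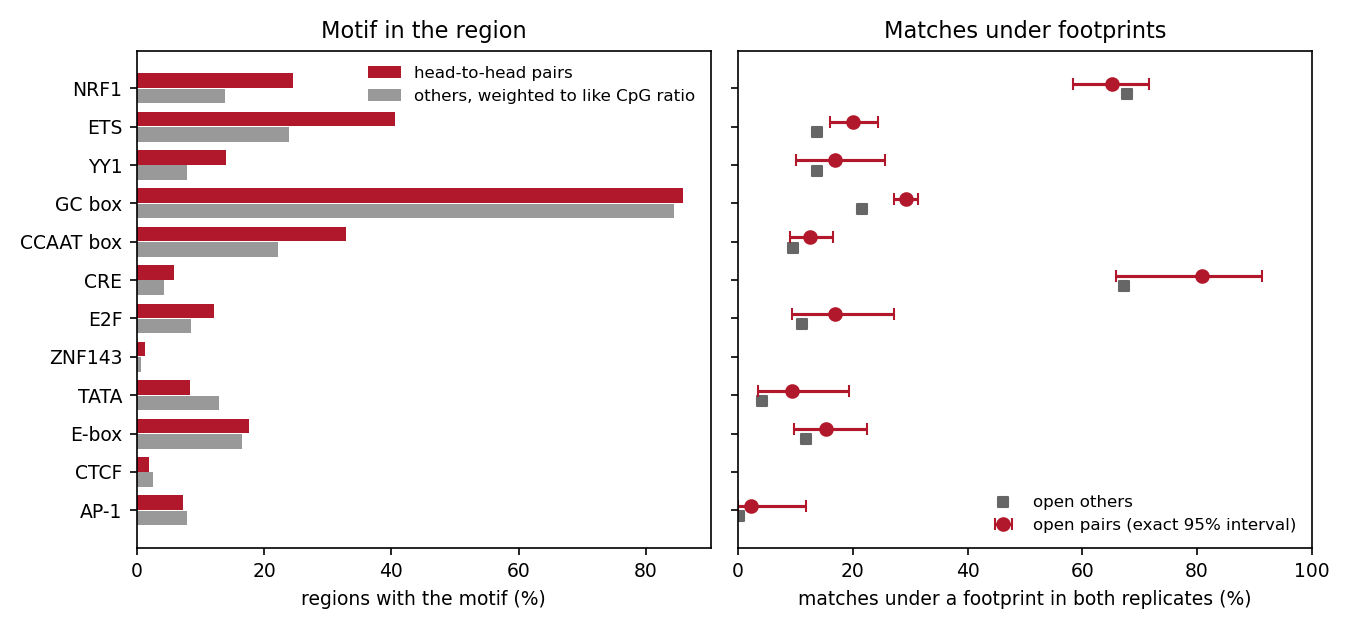
Left, share of regions that hold each motif (x axis, percent) in pairs (red bars) and other promoters weighted to like CpG ratio (grey bars). Right, share of motif matches under a footprint in both replicates (x axis, percent) in open pairs (red, exact 95% interval) and open other promoters (grey); motifs with under 20 matches in open pairs (ZNF143 and CTCF) are not drawn. The red bar is longer for NRF1, ETS, YY1 and the CCAAT box and shorter for TATA, CTCF and AP-1, and CRE at 81.0% and NRF1 at 65.2% are covered most often.

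Over all coding genes 6.12% belonged to a pair, and the lists of genes for basic cell functions differed in this share. Among cytosolic ribosomal protein genes 6 of 83 did (7.23%), close to all genes, and all 6 pairs were open in both replicates. Over all pairs 94.7% were open in both replicates, so a list with every pair open is near that share. Genes of these lists that are in no pair were mostly open too: 90.9% of cytosolic ribosomal, 98.3% of mitochondrial ribosomal, 87.8% of respiratory chain, 100% of tRNA synthetase and 89.5% of splicing genes. It was 88.1% for proteasome, 80.3% for chaperonin and heat shock and 95.3% for mitochondrial import and assembly genes. For DNA replication and repair it was 94.9% and for cilium and centrosome 91.5%. The strongest cytosolic ribosomal pair was Med22-Rpl7a on chromosome 2, with a Mediator subunit gene as partner, at 6.84 and 9.25. Next was Rpl9-Lias on chromosome 5, with lipoic acid synthetase as partner, at 5.57 and 8.14. Mitochondrial ribosomal genes were in pairs more often, 18 of 78 (23.1%), all 18 pairs open, with medians of 4.59 and 5.59 against 3.84 and 4.68 for all open pairs. Klc4-Mrpl2 on chromosome 17, with a kinesin light chain gene, had 6.65 and 8.73. Mrps12-Sars2 on chromosome 7, where a mitochondrial ribosomal gene faces mitochondrial seryl-tRNA synthetase, had 6.31 and 7.42.

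Respiratory chain genes made up 21 pairs with 21 of 103 genes (20.4%), all open, with medians of 3.67 and 4.40. Besides Tepsin-Ndufaf8, Ndufa8-Morn5 on chromosome 2 was high at 5.37 and 6.91. All 6 pairs with a tRNA synthetase gene were open, with medians of 3.86 and 4.46. The 7 pairs with genes of mitochondrial import and assembly were open with medians of 2.84 and 3.77, below those of all open pairs in both replicates. Coa5-Unc50 on chromosome 1, with a cytochrome oxidase assembly gene, had 3.37 and 4.78, and Zfp142-Bcs1l had 4.65 and 4.93. The 8 proteasome pairs were open too, at 2.92 and 3.45, led by Ftsj3-Psmc5 on chromosome 11 with 5.88 and 6.38 and Mrpl32-Psma2 on chromosome 13 with 4.70 and 5.83.

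Splicing and RNA processing gave 33 pairs with 33 of 147 genes (22.4%), all open, with medians of 4.62 and 5.95, the highest of the lists in replicate 2. Hnrnpa2b1-Cbx3 on chromosome 6, an RNA-binding protein gene facing a heterochromatin protein gene and long used as an example of an open element, had 7.44 and 9.16, a little below or above Ddx5-Cep95 depending on the replicate. DNA replication and repair gave 33 pairs with 32 of 110 genes (29.1%): 31 were open, 1 was open in 1 replicate and 1 was not open. The medians of the open ones were 4.17 and 4.99. Among chaperonin and heat shock genes all 9 pairs were open, led by Cct5-Fam173b on chromosome 15, a chaperonin subunit gene, with 7.36 and 8.42, and Dnajb4-Fubp1 on chromosome 3, a DnaJ cochaperone gene, with 7.32 and 8.89. Of cilium and centrosome genes, 18 of 77 (23.4%) were in 18 pairs, all open, at 4.19 and 4.79, and Cep170-Sdccag8 on chromosome 1 had 5.83 and 8.59.

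Synaptic, developmental and sensory genes were seldom in pairs. Of 60 synaptic genes 1 was, Nlgn2 on chromosome 11, the adhesion protein of inhibitory synapses, which faces Tmem256 with 5.42 and 5.62. Of 166 homeobox, forkhead and Sox genes 2 were: Foxa3-Sympk, with 3.24 and 4.29, and Rhno1-Foxm1, with 2.17 and 2.57. Of 1713 sensory receptor, keratin and P450 genes 2 were, 0.117%, and both stood at open promoters of a gene with a general role. Nt5c3-Vmn1r4 pairs a pyrimidine nucleotidase with a vomeronasal receptor and had 3.91 and 4.77, and Tas1r1-Nol9 pairs a taste receptor with a nucleolar processing gene and had 3.23 and 4.14. Only 1.58% of the other 1711 genes of that list were open in both replicates. Zinc finger genes were in pairs about as often as all genes, 23 of 465 (4.95%). All 20 pairs were open, against 94.7% of all pairs and 81.0% of zinc finger genes in no pair. Examples were Zfp654-Cggbp1 at 6.74 and 7.04 and Zfp277-Dock4 at 5.03 and 6.12. The collagen list had 3 of 45 genes in pairs (6.67%), close to all coding genes, in 2 pairs, Col4a4-Col4a3 and Polk-Col4a3bp at 3.56 and 5.16, where Col4a3bp is a ceramide transfer protein and not a collagen.

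**Figure D5:**
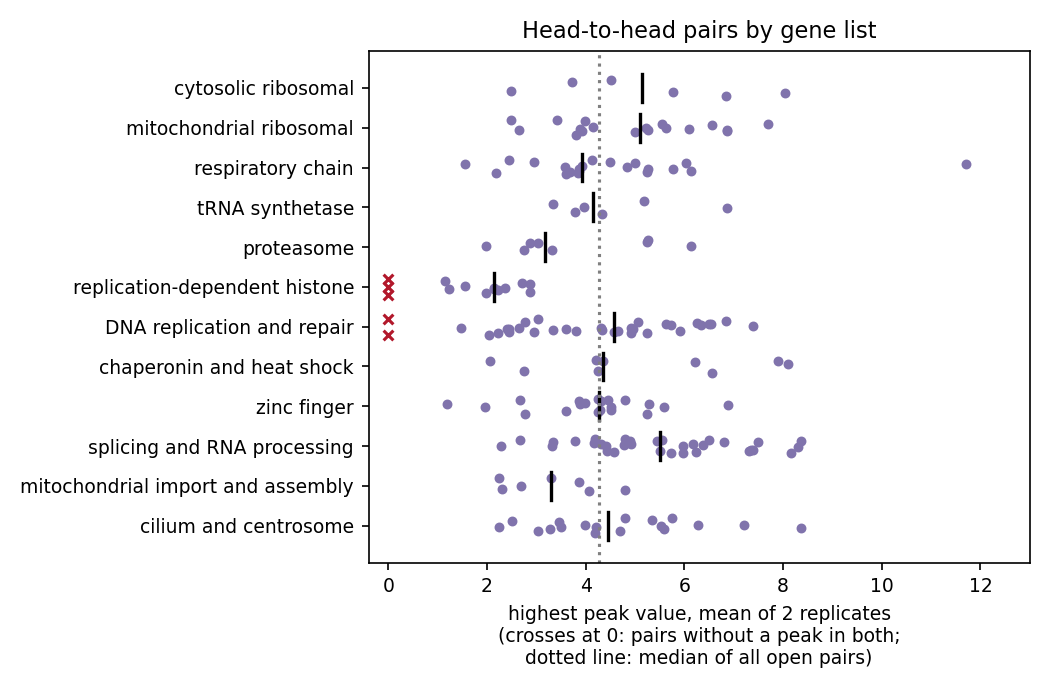
Mean over both replicates of the highest peak value (x axis, authors' unit) of each open pair with a gene of the list (points; black bar, median; dotted line, median of all open pairs at 4.28; crosses at 0, pairs without a peak in both replicates). Histone pairs all lie below the dotted line, and the splicing list has a median above it.

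Histone genes were the list with the largest share in pairs, 27 of 66 (40.9%). Replication-dependent histone genes lie in clusters where H2A and H2B genes often start head to head. Against 94.7% of all pairs and 89.7% of histone genes in no pair, 11 of the 14 histone pairs were open in both replicates and 3 in neither. The open ones had low values, from 0.983 to 2.74 in replicate 1 and from 1.30 to 3.28 in replicate 2, with medians of 2.23 and 2.31. All 11 had a mean value below the median of open pairs, 4.28, although their CpG ratios ran from 0.683 to 1.03. Hist1h2bf-Hist1h2ad on chromosome 13 had 2.74 and 3.00 and Bola1-Hist2h2ab on chromosome 3 had 2.46 and 3.28. Histone genes are near copies of each other, and how reads that fit several places were treated is not given in the sources used here. Of the 31-base words in the open histone regions, 9.73 to 54.0% occur more than once in the genome, where the median over open pairs was 0%. The part of this in the low values was not tested. Hist1h2bh-Hist1h3f, with 9.73% repeated words, had 1.07 and 1.40, and Bola1-Hist2h2ab had 10.7%.

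The 31 pairs without a peak in either replicate were mostly CpG-poor, with a median CpG ratio of 0.404 against 0.835 in open pairs, and 10 of them had a ratio of at least 0.6. None held a footprint in replicate 1 and 1 did in replicate 2. The nearest peak was a median of 4089 bp away in replicate 1 and 5206 bp in replicate 2. Of the 6 with the highest CpG ratio, Hist1h2bq-Hist1h2ao and Hist1h2ap-Hist1h2br on chromosome 13 consist wholly of repeated 31-base words (100%), so that a read of 31 bases from them fits more than 1 place. Hist1h2ba-Hist1h2aa, also on chromosome 13, encodes the testis-specific H2B and H2A and had 2.96% repeated words. Gm10447-Shroom1 on chromosome 11, Lypd4-Dmrtc2 on chromosome 7 and Gm4779-8030474K03Rik on chromosome X had 0%. Over all pairs, 10 had more than 50% repeated words, of which 6 were open and 4 were not.

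Further pairs without a peak, named after their values were seen, differed in how far away the nearest peak was. Rad51c-Tex14 on chromosome 11 joins a recombination gene with a gene of germ cell bridges, and had its nearest peak 44 bp beyond the region in both replicates. Surf4-Stkld1 on chromosome 2 had one 18 and 38 bp away. For both, the peak lay just outside the region, which ends 250 bp inside each gene. Others were further off: Tssk3-Fam229a, with a testis kinase gene, had its nearest peak 4291 and 4289 bp away, and Patl2-Terb2, with oocyte and meiosis genes, 8019 and 8099 bp. Pecam1-Milr1, with the endothelial adhesion gene, was 12798 and 12778 bp away. Smyd1-Cd8b1, with a muscle methyltransferase and a T cell coreceptor gene, was 20418 and 20765 bp away, and Duox2-Duoxa2, the thyroid hydrogen peroxide oxidase and its maturation factor, 2459 and 2491 bp.

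The 5 pairs seen in 1 replicate only had low values there. In replicate 2 Tradd-Fbxl8 on chromosome 8, with an adaptor of the TNF receptor, had 0.840, N4bp3-D930048N14Rik on chromosome 11 had 0.709, Pinlyp-Xrcc1 on chromosome 7, with a scaffold of single-strand break repair, had 0.546, and Kctd19-Lrrc36 on chromosome 8 had 0.375. Il17rb-Chdh on chromosome 14 had 0.438 in replicate 1. Their values lie between 0.375 and 0.840, where the median of the whole lists was 0.594 and 0.734.

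Pairs on chromosome X were lower than those on autosomes. Of 18 pairs on X 15 were open in both replicates, where 94.7% of all pairs were. The open X pairs had values from 0.332 to 4.28 in replicate 1 and from 0.326 to 4.02 in replicate 2. Their medians were 2.24 and 2.26, against 3.87 and 4.74 for open autosomal pairs, and the ranges overlap. Other coding promoters on X were lower as well, at 1.18 and 1.47 for 380 open regions, against 2.48 and 3.15 on autosomes. Males carry a single X; its part in these values was not tested. The highest pairs were Fam90a1b-Apoo, with a mitochondrial apolipoprotein gene, at 4.28 and 4.02, and Idh3g-Ssr4, with a citric acid cycle enzyme gene, at 3.48 and 3.67. The lowest was Nup62cl-Pih1h3b at 0.332 and 0.326. Mtcp1-Brcc3 and Cmc4-Brcc3, at 2.37 and 2.67, share their peak and are not independent.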

How the data were processed

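DNase-seq of 2 replicates was used as deposited. Per the deposited file descriptions, each file came from an alignment of 1 library to mm10, and calling was therefore done for each replicate on its own; aligner and caller were not given in the sources used here. A longer peak list (115072 and 95711 peaks) and a shorter one (61743 and 52004) existed for each replicate. The authors deposited a signal value for each peak, with its unit not stated. The p-value column deposited by the authors in the footprint files holds a false discovery rate of 0.01 on every line; footprints numbered 285181 and 244137. The lists of cut rate false discovery rates were not used here. Read depth is unknown.

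Genes came from GENCODE M21 and sequence from GRCm38.p6, the mm10 build. The outermost basic-transcript start site of each gene was used, which left out 106 divergent pairs with overlapping bodies and 328 with crossed starts. A peak or footprint counted if it overlapped a region by at least 1 bp, and the value of a region is that of its highest peak. Other promoters ran from 250 bp inside the gene to 250 bp plus the median pair distance of 145 bp upstream. Their bins of CpG ratio (width 0.1) were weighted to the pairs. Of the pairs, 4 share their region exactly and 38 overlap another. The members, the 16 gene lists and the 12 motifs were chosen with earlier results of these data known. Pairs were named by rule: the 8 highest, the textbook pairs, the 6 closed ones richest in CpG, up to 6 seen in 1 replicate, the 5 with most shared footprints, the 3 shortest and 3 longest, 4 with separate peaks, and 2 open pairs per list. Some pairs that this rule takes are not reported here. Alternatives were the shorter list, 500 bp as limit, each replicate alone, other overlap, region, weighting and comparison sets; regions with at most 50% repeated 31-base words and genes with 1 start site were added after seeing the data. The code was checked on simulated data. Python 3.11.15, pandas 2.3.3, numpy 2.4.6, scipy 1.17.1 and pysam 0.24.0 were used.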

Additional observations from a re-analysis of the deposited data

How the results depend on the processing

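Of the values of the 5 results that follow, 14 moved by less than the spread between replicates under an alternative, 32 by more and 0 reversed. The shares of motif matches under footprints, recomputed in each replicate alone, moved by more in 20 of 24 values. By definition they cannot be lower than with both replicates required, which counts a subset of the same matches. The causes of the other changes were not tested. The share of pairs open in both replicates (94.7%) was 94.0% with the shorter peak list, 94.1% with the peak centre in the region, 94.0% with peaks above the list median, 95.2% without regions of mostly repeated 31-base words, and 94.9 to 95.3% without replicate 1 or 2. The difference to other promoters (6.05 points) was 9.83 with the shorter list, 4.82 with start sites up to 500 bp apart and 10.3 with the peak centre. It was 9.13 with peaks above the list median, 6.27 with 250 bp either side of each start site, 16.1 with GC bins and 40.6 with no weighting. Against others with no divergent gene it was 6.37, where genes with crossed starts were not counted as divergent and could remain. It was 5.81 without repeated regions, 5.84 for genes with 1 start site, and 4.93 to 4.94 with 1 replicate left out. The value ratio (1.36) was 1.32 with the shorter list, 1.49 with GC bins, 1.61 with no weighting and 1.29 for genes with 1 start site. The share under 1 same peak (52.9%, in both replicates) was 59.1% up to 500 bp and 64.5% with widened peaks. In single replicates, where the other replicate is not required, it was 59.9 to 60.8%. The footprint ratio (1.19) was 1.16 with the shorter list, 1.21 up to 500 bp, 1.15 with 250 bp either side, 1.25 with GC bins, 1.33 with no weighting, 1.29 with shared footprints and 1.13 for genes with 1 start site. No paired analysis was possible because the series has 1 group. Depth is unknown, so a missing peak is not shown to be closed chromatin, and reads of the CAST/EiJ allele were placed on the C57BL/6 reference.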

Other observations

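Promoters with other divergent partners lay between the pairs and the rest. A further 841 coding promoters had a noncoding gene starting divergently within 1000 bp. Of these, 696 were open in both replicates, 82.8% (exact interval 80.0 to 85.3%), or 92.0% after weighting to the CpG ratio of the coding pairs, which themselves stood at 94.7%. Their weighted median value was 3.03 in replicate 1 and 3.86 in replicate 2, where the coding pairs had 3.84 and 4.66. Their footprints numbered 10.5 and 10.7 per kb, against 11.5 in both replicates for the coding pairs. Their regions are laid out like those of the other promoters, with the further 250 bp upstream.

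Coding genes that face each other with overlapping bodies or crossed start sites numbered 850, of which 722 were open in both replicates (84.9%, or 90.4% after weighting). Their weighted median values, 3.59 and 4.50, were nearer to those of the pairs than the values of promoters with a noncoding partner were. Their footprint density was 10.1 and 10.5 per kb, in regions laid out in that same way.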
